A study of Mus musculus with 24 samples.

Results

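The comparison described here was between spinal cord ribosome pulldowns with and without Cre in mice heterozygous for the Gars C201R mutation. It rests on 12 of the 24 libraries in the series, chosen by their labels alone: 6 with Cre and 6 without. The study addressed which mRNAs motor neurons translate when Gars carries this mutation. Mice with Cre had the labelled genotype Rpl+/-;Chat+/-;C201R+/-, and their controls had Rpl+/-;Chat+/+;C201R+/-, so that all 12 carried the tagged ribosomal protein allele and the mutation, each in 1 copy. Strain background (B6.CgxB6.129), age (8 weeks) and tissue (spinal cord) were the same in all groups. Every mouse gave 1 library, named here by the mouse number; p-values measure the spread between mice. The other 12 libraries, with Cre (Rpl+/-;Chat+/-;C201R+/+, 6) or without it (Rpl+/-;Chat+/+;C201R+/+, 6), were wild type at Gars and stand beside the mutant values where stated.

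In the RiboTag method, Cre switches on an HA tag on Rpl22, a protein of the large ribosomal subunit, and anti-HA antibody then pulls down the ribosomes of Cre-expressing cells with the mRNA on them. The Chat locus, which drove Cre here, encodes choline acetyltransferase and is active in all cholinergic cells of the cord: alpha and gamma motor neurons, preganglionic autonomic neurons and cholinergic interneurons. A pulldown without Cre holds RNA that sticks to beads and antibody without a tag, and so gives the cord background measured in the same way. The product of Gars is the enzyme that loads glycine onto its tRNA. Dominant mutations in it cause a motor and sensory neuropathy. In many cells, stalled translation or amino acid shortage activates the kinase Gcn2 (Eif2ak4), which phosphorylates the initiation factor eIF2 and thereby raises translation of the transcription factor ATF4 and the expression of its targets.

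Totals ranged from 12.1 to 21.03 M expected counts with Cre (18.3 ± 3.3 M, SD, n = 6) and from 8.899 to 14.3 M without (11.3 ± 2.4 M, n = 6; exact two-sided permutation p = 0.0065). Composition moved with Cre as well. The mitochondrial genome took 45.4 ± 5.4% of counts without Cre and 6.87 ± 4.52% with it, most of it from mitochondrial ribosomal RNA (38.3 ± 5.1% and 5.99 ± 4.08%). Gm26924, a predicted gene to which ribosomal RNA reads map, took 25.4 ± 14.5% with Cre and 3.61 ± 2.08% without. For each of these 3 shares the exact permutation p was 0.0022, the smallest that 6 against 6 allows, and 0.0029 adjusted over 4 library measures. The library numbers fell into 2 runs, called here library series 1 (3 libraries with Cre, 1 without) and series 2 (3 and 5); the meaning of the runs is not labelled. Gm26924 took 37.7% in series 1 and 13.1% in series 2 with Cre, and 7.60% and 2.81% without. With labels exchanged only within series, each of the 4 measures had an exact permutation p of 0.0045, the smallest of 224 arrangements. Mouse 14003-1, with Cre, stood apart from the other 5 by its low total (12.1 M) and its mitochondrial share (15.8%). Its share of Gm26924 (43.3%) was the highest of a spread that began at 8.01%. With the mitochondrial genome and Gm26924 removed before filtering and scaling, 4299 genes were higher and 3748 lower of 13946, against 4370 and 3775 of 14335 with them. The log2 change of Chat was 5.07 without them and 5.09 with them. The part of library totals was not tested.

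**Figure D1:**
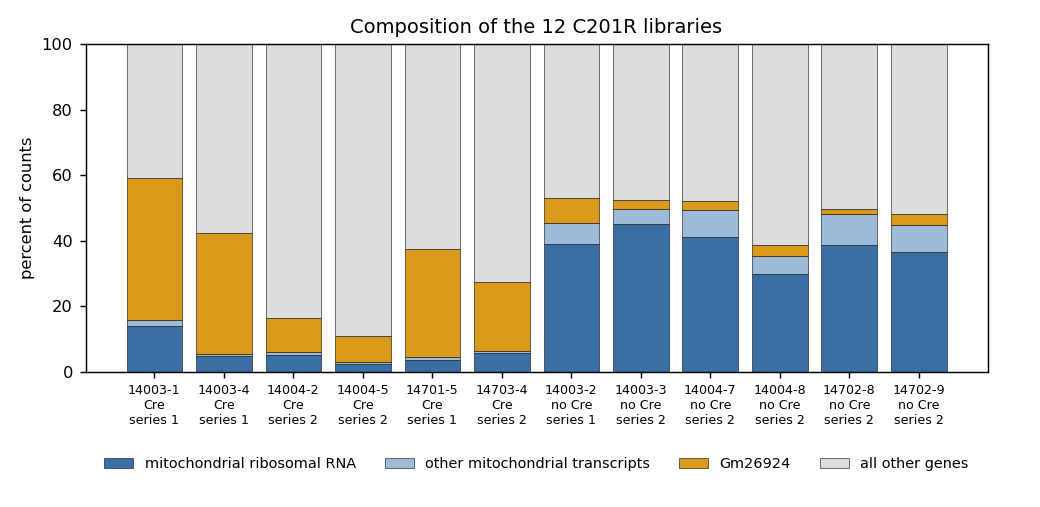
Share of expected counts, in percent of each library's total, for the 12 C201R libraries (1 bar per mouse, with Cre at left). Mitochondrial transcripts fill 35.2 to 49.6% of every library without Cre and 3.03 to 15.8% of those with Cre, and Gm26924 is highest in series 1 libraries with Cre.

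The pulldowns carried the marks of cholinergic neurons. Chat stood at 46.1 to 117 CPM with Cre (CPM, scaled to library size; median 63.6) and at 0.794 to 3.11 CPM without (median 1.77). The lowest library with Cre was thus above the highest without, and the log2 change was 5.09 ± 0.34 (SE; edgeR adjusted p = 6.2e-09), a 34.1-fold difference. Slc5a7, the choline transporter that refills the terminal, ranged from 203 to 558 CPM with Cre (median 456) and from 22.6 to 31.8 CPM without (log2 change 4.12 ± 0.22). Prph, the intermediate filament protein peripherin of motor and sensory axons, ranged from 271 to 358 CPM with Cre and from 5.95 to 15.5 CPM without (4.86 ± 0.23). The groups did not overlap for any of these markers. For these and the genes below, the share of all genes tested that also lack overlap is not given here. Lack of overlap therefore does not set them apart from other genes. Within the group with Cre, the 3 series 1 libraries were highest for Chat (71.2, 83.8 and 117 CPM) and included the lowest values of Slc5a7 (203 and 281 CPM). In series 2 alone the log2 changes were 4.67 for Chat, 4.19 for Slc5a7 and 4.81 for Prph, and without mouse 14003-1 they were 4.95, 4.11 and 4.78. Slc18a3, the vesicular acetylcholine transporter, was not analysed here.

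Fgf21, a secreted hormone that many tissues make under stress and that marks no cell type, was near background without Cre. It ranged from 17.7 to 74.7 CPM with Cre (median 36.4) and from 0 to 0.978 CPM without. Its log2 change was 5.88 ± 0.49 (adjusted p = 5.7e-08), and no library without Cre reached the lowest with Cre. As for Chat, its highest values were in series 1 (38.6, 50.5 and 74.7 CPM), and in series 2 alone the log2 change was 5.42. Gars itself ranged from 135 to 194 CPM with Cre and from 16.5 to 31.3 CPM without (2.80 ± 0.21, adjusted p = 1.1e-08). The counts do not separate the mutant from the normal Gars allele. Rpl22, the tagged gene, overlapped between the groups: 18.0 to 31.4 CPM with Cre and 9.49 to 19.9 CPM without. Its log2 change of 0.73 ± 0.24 passed the test (adjusted p = 0.016), but not under the scaling RLE (0.55, adjusted p = 0.061). The call was also lost with the mouse number prefix as a block (adjusted p = 0.13), and without mouse 14003-2 (0.085) or 14004-7 (0.060), both without Cre, or mouse 14703-4 with Cre (0.075).

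**Figure D2:**
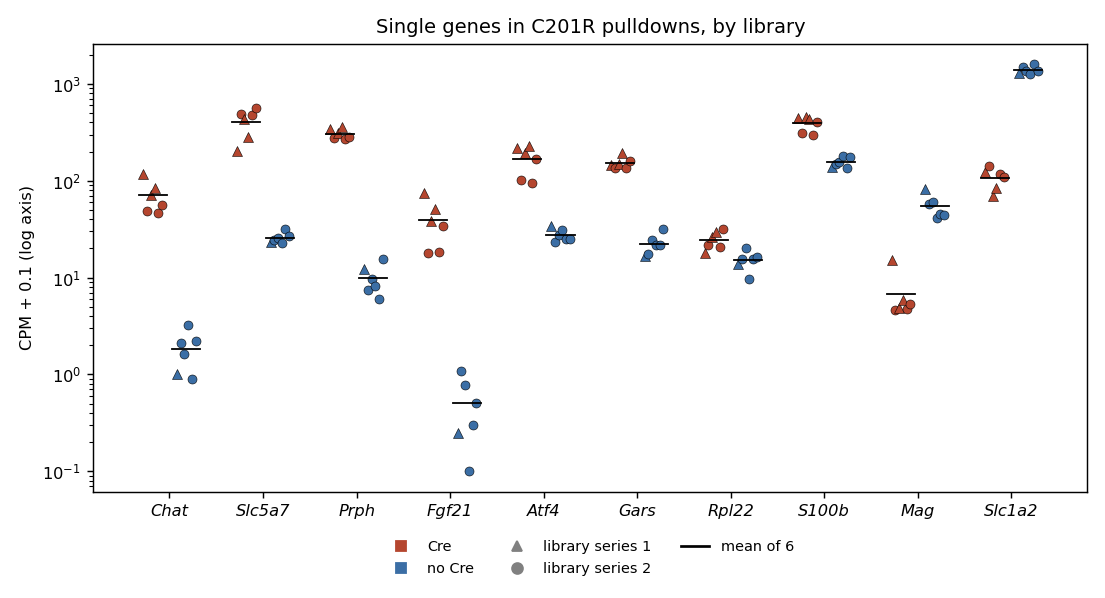
CPM + 0.1 on a log axis for 10 genes in each of the 12 C201R libraries; red, with Cre; blue, without; triangles, library series 1; circles, series 2; lines, means of 6. Chat, Slc5a7, Prph, Fgf21, Atf4, Gars and S100b lie higher with Cre and Mag and Slc1a2 lower, each without overlap, whereas Rpl22 overlaps.

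Across the table, 4370 of 14335 genes tested were called higher with Cre (30.5%) and 3775 lower (26.3%) at an adjusted p under 0.05, with a median log2 change of 0.06 over all genes. The counts of list members below are to be read against these shares. The split depends on scaling: with library totals alone, 71.2% of called genes were higher, against 53.7% here, and the median of all genes moved by 0.58. Both groups were pulldowns from C201R cords and differed in Cre, so each value is a share of the RNA recovered. A lower value measures neither the number of cells of a type nor the RNA per cell.

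Among named genes with a mean of at least 5 CPM, the largest changes were in secreted peptides and cholinergic or motor neuron genes. Uts2, the precursor of the peptide urotensin 2, led with 32.9 to 73.0 CPM with Cre and 0.151 to 1.97 CPM without (log2 change 5.96 ± 0.47). Its relative Uts2b (5.26 ± 0.54) and both genes of calcitonin gene-related peptide, Calcb (5.12 ± 0.45) and Calca (4.58 ± 0.38), also rose. Chodl, a membrane lectin of fast motor neurons, ranged from 162 to 209 CPM with Cre and from 2.09 to 9.32 CPM without, a 36.8-fold difference. The others were Arhgap36 (5.32), the vesicle membrane protein gene Slc10a4 (5.07), the motor neuron homeobox gene Mnx1 (4.91), the vitamin D receptor Vdr (4.90), Palm3 (4.64), the gamma-synuclein gene Sncg (4.57) and Chac1 (4.47), an enzyme that degrades glutathione. Outside the rule for named genes, the processed pseudogene Gm8355 was singled out after its values were seen. It was at 848, 779 and 357 CPM in the series 1 libraries with Cre, at 39.8, 99.9 and 252 CPM in series 2, and at 0 to 4.38 CPM without Cre. Its reads may be shared with its parent gene, so this value is uncertain.

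Of the 6 measured genes of acetylcholine handling, 5 rose with a list median of 3.77. Besides Chat, Slc5a7 and Slc10a4 these were Acly, which makes the acetyl-CoA that Chat uses (3.42 ± 0.19), and Ache, the esterase that ends transmission (1.74 ± 0.18). Colq, which anchors the esterase at the synapse, stayed under 1 CPM on average with Cre (0.970; 1.38 ± 0.97, adjusted p = 0.23). Of 9 measured motor neuron markers 6 rose and 1 fell (median 3.27). The transcription factors Isl1 (3.27), Isl2 (3.64) and Lhx4 (3.32) were among those that rose. Etv1 fell (-1.29 ± 0.25), a call lost with library totals (-0.69, adjusted p = 0.13). Foxp1, which marks limb motor columns in the embryo, had a log2 change of -0.01 ± 0.26.

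Markers of both classes of motor neuron were among the genes that rose. Alpha motor neurons drive force-producing muscle fibres and gamma motor neurons set the tension of muscle spindles. Of 10 alpha markers 8 rose (median 3.19), with Spp1 (osteopontin) at 291 to 469 CPM with Cre against 18.2 to 40.7 CPM without, and Stk32a, Mmp9 and Vipr2 at log2 changes of 3.57, 3.33 and 3.06. Rreb1 (-3.09) and Kcnq5 (-1.73) fell. Of 10 gamma markers 5 rose and 2 fell (median 1.39). The serotonin receptor gene Htr1d was low but did not overlap, at 3.904 to 11.4 CPM with Cre and 0.304 to 1.21 CPM without (3.31 ± 0.48). Nxph4 (2.38), Gfra1 (2.18), Plch1 (2.12) and the nuclear receptor Esrrg (1.71) rose too. Of the 2 gamma markers that fell, Kcnh7 had the lowest log2 change (-2.14). Of the gamma markers that did not pass, Esrrb had 1.07 ± 0.57.

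Other cholinergic cells left a mixed record. Of 5 measured markers 2 rose and 2 fell. Cartpt, a peptide of preganglionic neurons, ranged from 24.3 to 89.6 CPM with Cre and from 0.654 to 4.17 CPM without (4.12 ± 0.39). Nos1, of the same neurons, rose less (0.87 ± 0.19). Zeb2 (-2.83) and Fbn2 (-3.71) fell.

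Of 16 measured neuropeptide genes 10 rose and 2 fell (median 1.58). Besides urotensins and calcitonin gene-related peptides these included Nts (3.56), Cck (2.23), Adcyap1 (1.42), Penk (1.16) and Sst (1.01). The peptides that fell were Tac1 (-1.88 ± 0.50) and Pdyn (-1.98 ± 0.70), both of dorsal horn neurons. Both calls were lost with the prefix block (adjusted p = 0.13 and 0.082). That of Pdyn was also lost with library totals (0.093), in series 2 alone (0.073) and without mouse 14703-4 (0.059), 14003-2 (0.098) or 14004-8 (0.055).

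Transcripts of other neurons were mostly lower or not called. None of 8 inhibitory markers rose and 4 fell (median -1.17), among them the glycine transporter Slc6a5 (45.9 to 70.8 CPM with Cre, 106 to 262 without; -1.97 ± 0.25), Slc32a1 (-1.27) and Gad2 (-1.06). The calls of Slc32a1 and Gad2, and that of Slc17a6, were lost with library totals alone. Slc32a1 also lost its call with the prefix block (adjusted p = 0.088) and without mouse 14004-2 (0.11), 14004-5 (0.094) or 14703-4 (0.079), all with Cre. Of 4 excitatory markers, the vesicular glutamate transporter Slc17a6 (-1.26 ± 0.21) and Lmx1b (-3.30 ± 0.73) fell. Maf rose slightly (0.54 ± 0.22, adjusted p = 0.045), a call lost under most alternatives. Among markers of dorsal root ganglion neurons, 3 of 9 were measured. P2rx3 was higher (1.13 to 4.83 CPM against 0 to 0.902; 2.54 ± 0.80, adjusted p = 0.012), whereas the defining sodium channel genes Scn10a and Scn11a were below the count filter with fewer counts with Cre than without (103 and 338; 53 and 92). Isl2, also on that list, is expressed by motor neurons.

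General neuronal genes followed the cholinergic ones. Of 12 pan-neuronal genes 9 rose and 0 fell (median 2.02), led by Tubb3 (4.07), Stmn2 (3.88), Uchl1 (3.81) and Nsg1 (2.85). Syt1 (0.44 ± 0.23), Nsg2 (0.50 ± 0.21) and Celf4 (0.14 ± 0.18) did not pass. Of 20 genes of neurofilaments and axonal transport 14 rose and 1, Bicd2, fell (-0.68 ± 0.20), a call lost with library totals (-0.12, adjusted p = 0.79), with no count filter (0.061) and without mouse 14003-2 (0.079). The neurofilament genes Nefm (3.60), Nefl (2.73) and Nefh (2.65) had higher log2 changes than Ina (0.52), a further subunit. Ina lost its call in 13 of 23 alternatives. Among motors, Klc1 (2.64), Dctn2 (2.52), Dync1i1 (1.95), Kif3a (1.63) and Kif5c (0.97) rose, and the long Kif1a (-0.06 ± 0.16), Kif1b (-0.12 ± 0.15) and Kif5a (-0.05 ± 0.15) did not pass. Of 16 synaptic vesicle genes 12 rose and 2 fell. The vesicle SNARE of the neuromuscular junction, Vamp1, rose from 205 to 307 CPM without Cre to 1337 to 2083 CPM with it (2.60 ± 0.18). Its relative Vamp2 rose less (1.05 ± 0.20). Rab3a (2.45) and Cplx1 (2.28) were next. Of 23 genes of voltage-gated channels 5 rose and 8 fell (median 0.09), but 10 rose and 4 fell with library totals alone. Cacna1b (-1.80), Kcnc1 (-1.53), Cacna1e (-1.51) and Kcnq3 (-1.43) were among those that fell. Cacna2d3 (2.16) and Scn4b (0.68) were among those that rose.

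Most markers of non-neuronal cells fell. All 12 oligodendrocyte markers fell (median -3.29), with Mag, the myelin-associated glycoprotein, at 4.53 to 15.1 CPM with Cre and 41.4 to 81.2 CPM without (-3.36 ± 0.28). Precursor markers fell in 8 of 9 cases (median -2.96), microglial markers in 7 of 9 (-2.79), endothelial and mural markers in 12 of 12 (-2.98), Schwann cell markers in 7 of 8 (-2.67), meningeal markers in 7 of 8 (-2.60) and blood cell markers in 8 of 8 (-2.55). Blood markers that fell numbered 3 of 8 without the library series term. Of 3 measured ependymal markers, Hydin fell (-3.19) and Foxj1 (-0.72) and Rsph1 did not pass. No marker on these lists was at 0 in all libraries with Cre. The oligodendrocyte markers summed to 545 to 804 CPM with Cre and 4937 to 7269 CPM without, and the astrocyte markers to 491 to 657 and 2033 to 2587 CPM. Of 12 astrocyte markers 11 fell (median -3.29), with the glutamate transporter Slc1a2 at 68.7 to 141 CPM with Cre and 1271 to 1593 CPM without (-3.62 ± 0.19). The exception was S100b, a calcium-binding protein named as a glial marker. It ranged from 293 to 459 CPM with Cre and from 137 to 179 CPM without and so rose (1.24 ± 0.17, adjusted p = 1.1e-05), also in wild type (1.01 ± 0.15). The part of cell types in these values was not tested beyond these counts. Among the genes that fell furthest by the naming rule were Itgb4 (-4.10), the blood-brain barrier transporter Slco1a4 (-4.04), Tmem63a (-3.96), Notch1 (-3.92), Csf1r (-3.86), Stard9 (-3.85), the water channel Aqp4 (-3.85) and Acta2 (-3.84). Next came Atp13a4 (-3.83), Gdap10 (-3.82), connexin 43 (Gja1, -3.80), Mirg (-3.78), Speer4d (-3.77) and the urea transporter Slc14a1 (-3.77).

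Apart from the 3 ependymal markers (median -0.72), the list medians of non-neuronal cell types lay between -3.29 and -2.55. RNA classes that cytosolic ribosomes do not translate lay in the same range or below. All 15 genes of the mitochondrial genome fell (median -3.62), as did 7 of 8 long noncoding RNAs of the nucleus (median -3.08), among them Malat1 (-2.99), Meg3 (-3.11) and Miat (-3.24). Over all genes, the lowest 5% lay at or below -2.90 and the lowest 1% at or below -3.69. Mouse 14003-1 had the most of several of these among libraries with Cre, with Meg3 at 1931 CPM against a median of 715 CPM over the 6 and mt-Nd4 at 5733 CPM against 819 CPM. Without that mouse, the list medians were -4.07 for the mitochondrial genome, -3.46 for oligodendrocyte and -3.36 for astrocyte markers.

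**Figure D3:**
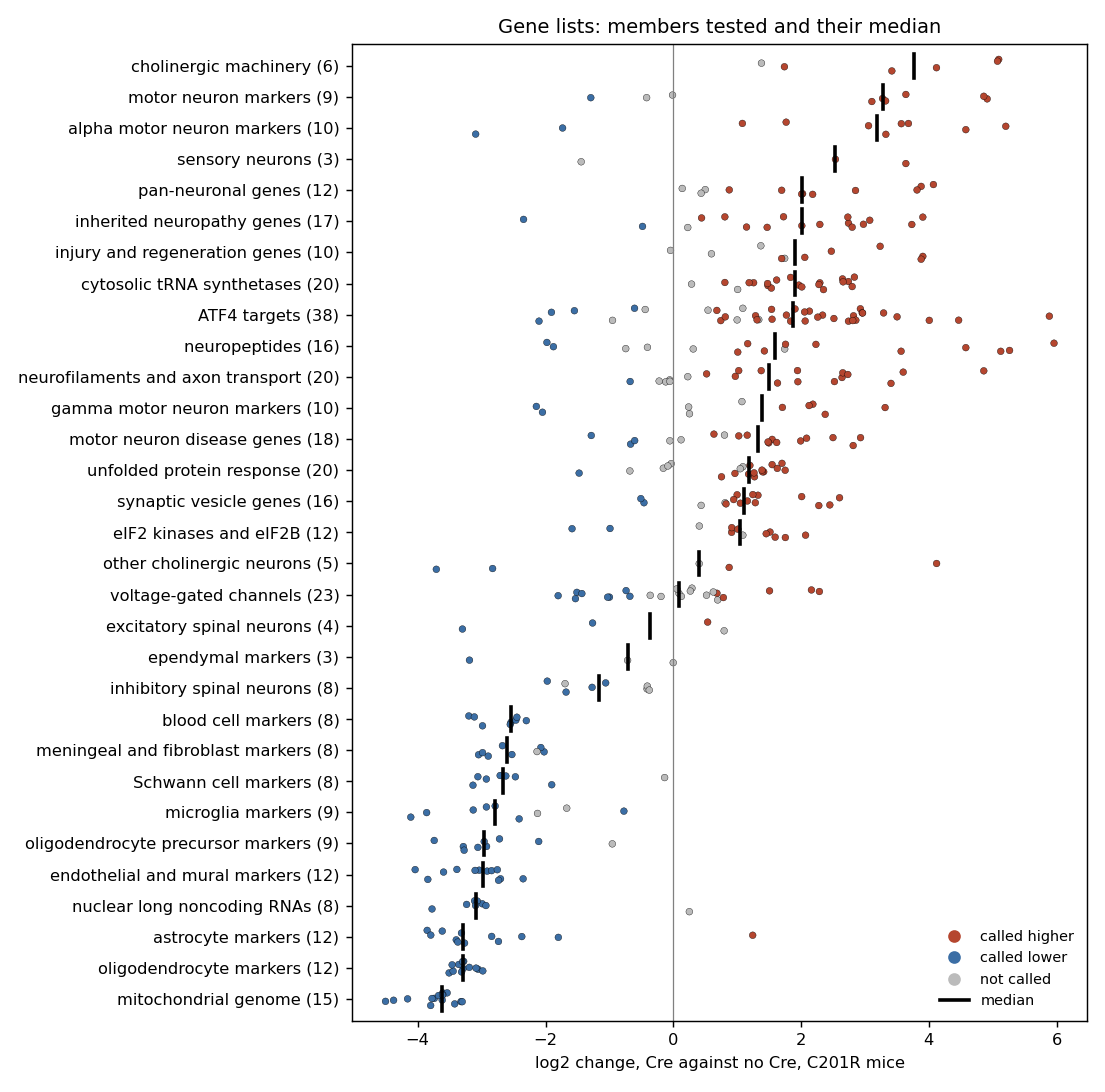
Log2 change with Cre in C201R mice (x axis) for each tested member of 31 gene lists (number tested in brackets), ordered by median; red, called higher; blue, called lower; grey, not called; bar, median. Lists of cholinergic machinery, motor neuron markers and alpha motor neuron markers are at the top. Lists of gamma motor neuron markers (median 1.39) and other cholinergic neurons (0.40) lie lower. Non-neuronal lists other than the ependymal, with mitochondrial and nuclear RNAs, are at the bottom with medians of -2.55 or less.

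ATF4 and many of its targets rose. Of 38 measured members, 28 rose and 4 fell (median 1.87). Atf4 itself ranged from 95.04 to 227 CPM with Cre (median 180) and from 22.9 to 33.9 CPM without (2.34 ± 0.19, adjusted p = 4.1e-08). Its series 1 values (194, 217 and 227 CPM) were above those of series 2 (95.04, 102 and 166 CPM), and in series 2 alone its log2 change was 2.13. The related factors Ddit3 (2.13 ± 0.40) and Atf5 (1.54 ± 0.34) rose. Atf3 and Trib3 were below the count filter, with totals of 252 and 40 counts with Cre and 10 and 3 without. Secreted products rose besides Fgf21: Adm2 (4.01 ± 0.67), Gdf15 (3.50 ± 0.78) and Stc2 (2.81 ± 0.54), the first of these at 6.00 CPM and Gdf15 at 2.64 CPM on average with Cre. The stress protein Nupr1 rose from 1.36 to 3.85 CPM without Cre to 17.8 to 37.9 CPM with it (3.29 ± 0.33).

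Enzymes of amino acid synthesis on the list rose too. Psph, which completes serine synthesis, ranged from 34.1 to 51.7 CPM with Cre and from 3.18 to 7.53 CPM without (2.86 ± 0.26). The earlier steps, Psat1 (1.77 ± 0.23) and Phgdh (1.31 ± 0.34), rose, although Phgdh overlapped between the groups (8.08 to 27.0 and 2.29 to 8.77 CPM). Asns, the asparagine synthetase (2.82), Mthfd2 (2.93) and Shmt2 (2.06) of mitochondrial folate metabolism, and Pycr1 (2.96) and Aldh18a1 (2.51) of proline synthesis rose as well. Of amino acid carriers, Slc7a1 (1.90), Slc7a3 (2.05), Slc7a5 (1.55) and Slc3a2 (0.68) rose. The cystine carrier Slc7a11 (-1.91 ± 0.39) and the glycine carrier Slc6a9 (-1.55 ± 0.25) fell, along with Vldlr (-0.61 ± 0.24) and Soat2 (-2.10 ± 0.65). The call of Vldlr was lost in 9 of 23 alternatives, and that of Soat2 with the prefix block (adjusted p = 0.18) and without the library series term (0.066).

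ATF4 binds DNA together with C/EBP proteins at an element of which TGATGCAA is a common form. Sites are shown here for members at both ends of the range of change, to let the letters be seen beside the values. Each line holds 48 bases of the RefSeq promoter table (build GRCm38.p6) on the gene's own strand, 5′ to 3′, with each match in capitals, which reads TTGCATCA where the element lies on the other strand.
Fgf21: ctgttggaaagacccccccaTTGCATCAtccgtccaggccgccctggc
Chac1: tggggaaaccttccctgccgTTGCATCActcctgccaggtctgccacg
Nupr1: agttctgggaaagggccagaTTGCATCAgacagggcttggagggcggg
Pycr1: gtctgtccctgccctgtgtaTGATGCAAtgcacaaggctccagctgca
Aars: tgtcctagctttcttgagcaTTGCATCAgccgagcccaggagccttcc
Slc7a11: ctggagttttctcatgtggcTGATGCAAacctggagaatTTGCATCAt
These windows lie at chr7:45615602-45615649 (minus strand), chr2:119351029-119351076 (plus), chr7:126625553-126625600 (minus), chr11:120643824-120643871 (minus), chr8:111033710-111033757 (plus) and chr3:50443652-50443699 (minus), in the same order. Their matches begin 139, 193, 110, 103, 112 and 66 bases before the gene start. The Slc7a11 window holds a further match, 47 bases before the start; the other 5 promoters shown hold 1 match each.

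Of the 34 list members with a promoter in that table (250 bases before to 50 after the start), 10 held the 8 letters on either strand (29.4%), against 279 of 27025 genes (1.03%). Beyond the 6 shown these were Atf3, Vldlr, Herpud1 and Jdp2. The list was drawn from known targets, so this share describes the list and is no test. Within it, 6 of 25 members called higher held a match (24%), and so did 3 of the 7 that were tested and not called higher. The log2 changes of the genes shown ran from the highest of the list, Fgf21 at 5.88, through Chac1 (4.47), Nupr1 (3.29), Pycr1 (2.96) and Aars (2.74), to Slc7a11, which fell.

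The cytosolic tRNA synthetases, several of which are also ATF4 targets, rose nearly as a whole: 18 of 20 were higher and 0 lower (median 1.90). Nars ranged from 681 to 1289 CPM with Cre and from 88.7 to 143 CPM without (2.83 ± 0.21). Gars (2.80), Aars (2.74), Wars (2.66), Rars (2.65), Sars (2.35), Hars (2.29) and Lars (2.28) were close behind. Only Farsa (1.01 ± 0.43, adjusted p = 0.056) and Qars (0.29 ± 0.32, adjusted p = 0.46) did not pass. Upstream of ATF4, 8 of 12 genes of eIF2, its kinases and its exchange factor rose and 2 fell (median 1.05). Wild type was similar, with 7 of 12 higher and 1 lower (median 1.02). In C201R, Eif2b5 (2.07), Eif2s2 (1.75), Eif2b2 (1.59), Eif2b1 (1.51) and Eif2b4 (1.45) rose. Of the kinases, Eif2ak1 rose (0.91 ± 0.22) and Eif2ak3 did not pass (1.09 ± 0.48, adjusted p = 0.060). Eif2ak2 (-0.99 ± 0.34) and Eif2ak4, the kinase Gcn2 (2.97 CPM with Cre and 7.96 CPM without; -1.59 ± 0.57, adjusted p = 0.024), fell. The call of Eif2ak4 was lost without mouse 14004-2 (adjusted p = 0.073), 14004-5 (0.076) or 14703-4 (0.12), all with Cre, and without mouse 14003-3, without Cre (0.064), as well as with library totals (0.15). That of Eif2ak2 was lost without mouse 14004-5 (0.068) or 14703-4 (0.058), with library totals (0.25) and with the prefix block (0.14). With that block Eif2ak1 (0.073) and Eif2b1 (0.13) were not called either.

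Chaperones of the endoplasmic reticulum rose moderately. Of 20 genes of the unfolded protein response 13 rose and 1, Edem1, fell (median 1.19). With library totals Edem1 lost its call (-0.80, adjusted p = 0.11). Hspa5, the chaperone BiP, was at 152 to 253 CPM with Cre and 38.6 to 117 CPM without (1.55 ± 0.26), and Pdia3 (1.70), Xbp1 (1.63), Calr (1.41), Canx (1.39) and Hsp90b1 (1.18) had similar changes. Dnajb9 rose with overlapping groups (1.75 ± 0.50). The sensors Atf6 (-0.16 ± 0.23) and Ern1 (-0.68 ± 0.33) did not pass. Of 10 measured injury and regeneration genes 6 rose and 0 fell: Hspb1 (3.904), Stmn2 (3.88), Ecel1 (3.24), Gadd45a (2.47), Jun (2.06) and Gap43 (1.70). Sprr1a was below the count filter (99 counts with Cre, 3 without). In wild type 6 of 9 measured injury and regeneration genes rose and 0 fell (median 1.42, against 1.90 in C201R).

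Genes of human motor neuron and nerve disease were mostly enriched. Of 18 motor neuron disease genes 12 rose and 3 fell (median 1.32), with Tuba4a (2.93), Chchd10 (2.81), Sod1 (2.50), Pfn1 (2.09) and the C9orf72 homologue 3110043O21Rik (1.99) highest. Nek1 (-0.67) was among those that fell, with a call lost with library totals (-0.06, adjusted p = 0.90). Of 17 inherited neuropathy genes 14 rose and 2 fell (median 2.01). The small heat shock protein genes Hspb1 (3.904) and Hspb8 (3.73), Hint1 (3.07), Lrsam1 (2.98) and Nefl (2.73) were highest, and Dnm2 (-2.34) and Morc2a (-0.48) fell. With library totals Morc2a had 0.08 (adjusted p = 0.86). Gars, Aars, Yars, Hars and Mars also belong to this list and rose, Mars with a call lost in 12 of 23 alternatives.

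Enrichment ran with transcript length. Protein-coding genes were divided into 5 classes by mean transcript length, over 13077 genes. The median log2 change was 1.203 in the shortest class (198 to 1525 bases), 0.54, 0.17 and -0.13 in the next, and -0.65 in the longest (4217 to 18456 bases). The share called higher fell from 54.2% to 13.3% and the share called lower rose from 11.6% to 44.8%. Across genes, which are not independent replicates, Spearman's rho was -0.38. In wild type the class medians ran from 0.85 to -0.70. Measured against the median of each member's own length class, the list medians were 3.49 for acetylcholine handling, 3.10 for motor neuron markers, 1.47 for ATF4 targets, 1.61 for tRNA synthetases, 0.69 for the unfolded protein response, 0.71 for neuropeptides, -3.49 for oligodendrocyte and -3.09 for astrocyte markers. No list named there changed sign, but the median of the excitatory markers did, from -0.36 to 0.16. The part of length in the calls of single genes was not tested.

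**Figure D4:**
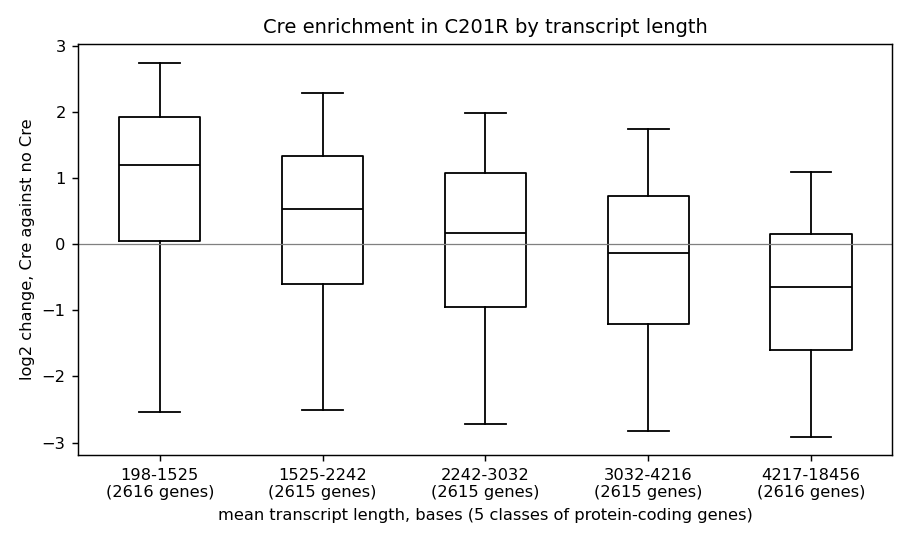
Log2 change with Cre in C201R mice (y axis) by 5 classes of mean transcript length in bases (x axis); box, quartiles with the median; whiskers, 5th and 95th percentiles. Medians descend from 1.203 to -0.65.

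Levels between genes were compared only as TPM, which is per length. Outside the mitochondrial genome and gene models of ribosomal RNA, Snap25, the SNARE protein of synaptic terminals, had the highest level with Cre (14902 ± 5737 TPM, SD, n = 6; 2356 ± 1565 TPM without). Lars2 (11928 ± 5062 TPM), Calm2 (10785 ± 4533 TPM) and Nefm (9174 ± 1234 TPM) followed. Snap25, Lars2 and Calm2 differed from each other by less than their SDs, whereas Nefm and the gene next below it, Hsp90aa1 (4358 ± 722 TPM), differed by more. Nefl (4300 ± 2526 TPM) and Hspa8 were also among the 15 highest. Chat (41.5 TPM), Slc5a7 (167 TPM) and Prph (334 TPM) were far less abundant, and Fgf21 (71.4 TPM) stood at a mean level above that of Chat. Members of the calmodulin, tubulin and Hsp90 families share near-identical sequence, and the division of reads among them is uncertain. Whether ribosomal RNA reads add to any of these levels, that of Lars2 included, was not tested.

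Most calls in C201R mice were shared with wild type. In wild type 3955 of 14264 genes tested were higher (27.7%) and 4682 lower (32.8%). Of genes called higher in C201R, 3381 were also higher in wild type (77.4% of the C201R calls and 85.5% of the wild-type calls), and 3296 were lower in both (87.3% and 70.4%). Log2 changes correlated across the 13820 genes tested in both (Pearson r = 0.92, a description across genes). Only 14 genes were called higher in C201R and lower in wild type, and 0 the other way. Direct tests of the difference, the genotype by Cre interaction, called 16 of 16109 genes more positive in C201R (0.0993%) and 5 more negative (0.031%). These counts moved with the processing: they were 1 and 0 with library totals alone and 84 and 31 with DESeq2. None of the cholinergic, motor neuron, glial, vascular or blood lists had a member among them. Chat had an interaction of 1.47 ± 0.45 (adjusted p = 0.26), Slc5a7 0.59 ± 0.34 (0.64), Prph 1.49 ± 0.55 (0.43) and Gars 1.10 ± 0.31 (0.20).

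Of 39 ATF4 list members measured in this test, 6 were more positive in C201R and 0 more negative. Its wild-type counts were 9 higher and 9 lower of 33, with a median of -0.08. Psph had a log2 change of 2.86 in C201R and -0.19 ± 0.28 in wild type (interaction 2.90 ± 0.35, adjusted p = 4.8e-05). Psat1 rose by 1.77 in C201R and fell by 0.85 in wild type (2.31 ± 0.31). Phgdh, added after its values were seen, showed the same reversal, from 1.31 to -2.16 (3.26 ± 0.61, adjusted p = 0.012). In the absence of the mutation, the serine synthesis enzymes Psat1 and Phgdh were thus called lower in the pulldown with Cre than in the cord background. Nupr1 stood at 29.2 ± 9.1 CPM in C201R with Cre and at 0.831 ± 0.502 CPM in wild type with Cre, each scaled within its own comparison (interaction 4.84 ± 0.74, adjusted p = 0.0016). Atf4 (1.57 ± 0.28) and Atf5 (2.53 ± 0.47) completed the 6. With library totals alone, Nupr1 was the member whose interaction call remained (adjusted p = 0.030). Blocking on the mouse number prefix, the calls of Atf4 and Atf5 (adjusted p = 0.070 for each) and Phgdh (0.081) were lost. Fgf21 did not pass the count filter in wild type and its interaction missed the threshold (5.35 ± 2.00, adjusted p = 0.42). Among tRNA synthetases, only Rars was called (1.30, adjusted p = 0.012). Its call was lost with library totals (adjusted p = 0.96), with the prefix block (0.066), in series 2 alone (0.073) and without mouse 14703-4 (0.052). The list median was 1.90 in C201R and 0.97 in wild type.

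Outside these lists, Cyb5r1, a flavin reductase, rose 13.4-fold in C201R (log2 change 3.75) and by 1.24 in wild type (interaction 2.37 ± 0.29). Clic4, of the chloride intracellular channel family, had 0.25 ± 0.17 in C201R and -1.90 ± 0.20 in wild type (1.92 ± 0.25), and Arhgef2 had -0.73 and -3.75 (2.66 ± 0.44). In the other direction, Pex5l ranged from 34.6 to 37.1 CPM with Cre and from 71.4 to 108 CPM without. It fell in C201R (-1.19 ± 0.17) and did not pass in wild type (-0.28 ± 0.13; interaction -1.11 ± 0.19, adjusted p = 0.0059). Dclk1 (-1.14), Zhx3 (-1.12), Ano3 (-1.44) and Srp54a (-4.57), which has near-identical copies among which reads were divided, were the remaining negative interactions. Within C201R, Dclk1 (0.81) and Srp54a (2.56) rose with Cre, Zhx3 fell (-1.68) and Ano3 did not pass (-0.52, adjusted p = 0.060). Each of these 4 lost its interaction call in at least 20 of 31 alternatives, compared with at most 2 of 31 for the other 9 genes named by the rule.

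**Figure D5:**
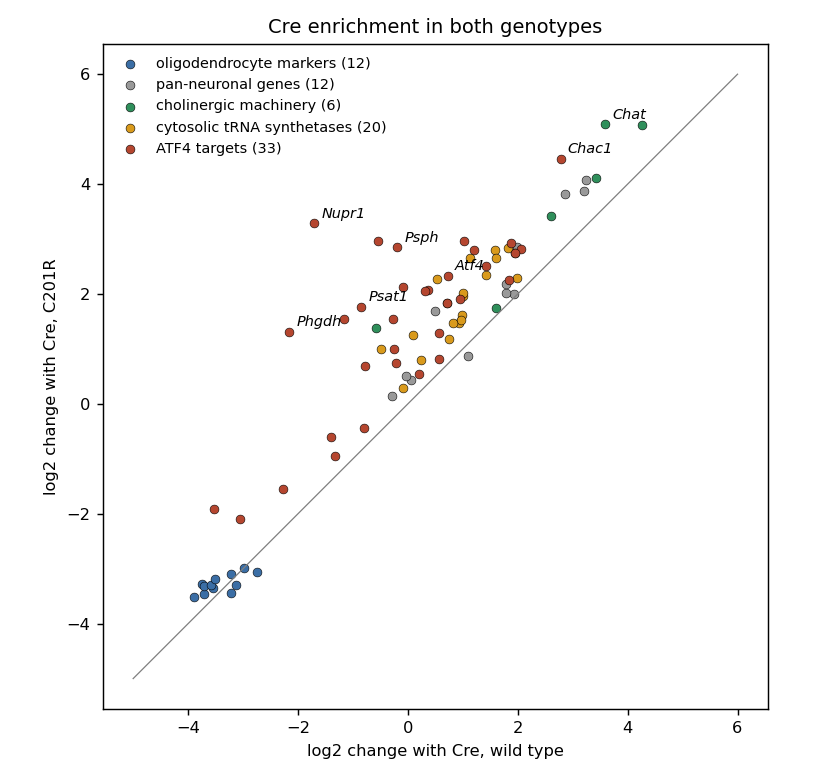
Log2 change with Cre in C201R (y axis) against wild type (x axis) for members of 5 lists tested in both (numbers in brackets); the line marks equal change. Oligodendrocyte markers lie near the line, and ATF4 targets such as Nupr1, Psph, Psat1 and Phgdh lie furthest above it.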

How the data were processed

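RNA on HA-tagged ribosomes from spinal cord was sequenced, 1 mouse per library. The deposited expected counts and TPM values are RSEM output per gene (tools named in the submitters' processing notes: Bowtie2 2.2.0, RSEM 1.2.12). The genome build is not given in the sources used here. The deposited transcript length, an isoform-weighted mean in bases per the file headers, was used for the length classes. Of 38924 gene IDs, 37607 matched GENCODE M21, and symbols were taken as deposited; 204 symbols belong to more than 1 ID.

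Expected counts were rounded. The test was the robust quasi-likelihood F test of edgeR 4.0.16 in R 4.3.3 (two-sided, Cre plus library series as terms), after filterByExpr and TMM scaling. P-values were adjusted by Benjamini-Hochberg over all genes tested, and an adjusted p under 0.05 was called. The standard error was taken as the absolute log2 change over the square root of F. CPM values use the scaled totals. The wild-type libraries were fitted separately, and the interaction was fitted over all 24 libraries. Totals and shares were compared by exact permutation. No library pair of a group agreed within sampling noise, with counts scaled by library totals rather than by TMM. In C201R the closest pair was at 11.4 times the expected noise with Cre and at 11.5 times without. The closest pair of any group was in wild type with Cre (8.29 times). Data for the C201R comparison (14020 genes) were simulated with 100 genes changed 2-fold, 100 changed 4-fold and the rest unchanged. There, 20% of the 2-fold and 74% of the 4-fold changes were recovered and 4.08% of calls were wrong. In the data 8145 genes were called, far more than were changed in the simulation, so these shares do not give recovery there.

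Members and lists were chosen with earlier results of these data known. Genes named by rule were Chat, Slc5a7, Prph, Fgf21, Gars and Rpl22, the 15 largest and 15 smallest called changes at a mean of at least 5 CPM (without predicted genes, small RNAs, pseudogenes, mitochondrial and sex-linked marker genes), up to 4 called members per list, and up to 8 called interactions per direction. Other list members, and Gm8355, Phgdh and S100b, were named after their values were seen. Some genes that the rule or the lists select are not reported here. Alternatives were other scalings, filters and tools (DESeq2 1.42.0, limma 3.58.1), no library series term, removal of the mitochondrial genome and Gm26924, the mouse number prefix as a block, series 2 alone, and each library left out.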

Additional observations from a re-analysis of the deposited data

Results flagged for a closer look

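In sets of 6 values for library measures and named genes (genes on log2(CPM + 1)), 27 of 270 had 1 library outlying by Dixon's criterion, where chance gives about 1 in 20. No explanation was tested.

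Mouse 14003-1 accounted for 10 of the 13 among libraries with Cre. It was low in total counts (12.1 M, group median 18.9 M), Kcnc1 (20.5 CPM, median 31.4) and Dnajb9 (13.6, median 44.9 CPM). It was high in mitochondrial share (15.8%, median 5.70%), mitochondrial ribosomal RNA (13.99%, median 4.96%), mt-Atp6 (1313 CPM, median 210) and mt-Nd4 (5733 CPM, median 819). It was also high in Chac1 (50.2 CPM, median 27.6), the myelin gene Mag (15.1 CPM, median 4.98) and the collagen gene Col1a2 (39.6 CPM, median 5.71). Mouse 14003-4 was high in Psph (51.7 CPM, median 36.9) and Maf (49.4 CPM, median 32.4), and mouse 14701-5 low in Prx (1.50 CPM, median 4.67).

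Without Cre, 8 of 14 outlying values were in mouse 14003-2, the only such library of series 1. It was high in Gm26924 (7.60%, median 3.13%), Kcnc1 (189.6 CPM, median 67.1), Miat (322 CPM, median 126) and Adm2 (1.81 CPM, median 0.0876). It was low in Slc6a5 (106 CPM, median 249.9), Gad2 (25.6 CPM, median 59.2), Dnajb9 (1.97 CPM, median 16.1) and Lrsam1 (1.51 CPM, median 4.56). Mouse 14004-8 was low in mitochondrial share (35.2%, median 46.7%) and high in Cacna2d3 (21.4 CPM, median 11.6). Mouse 14702-9 was low in Mirg (17.5 CPM, median 26.9) and high in Isl2 (1.64 CPM, median 0.0321). Nos1 was low in mouse 14004-7 (17.01 CPM, median 24.4) and Cspg4 in mouse 14702-8 (4.27 CPM, median 9.46).

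The change with Cre differed between C201R and wild type by the edgeR interaction test for 13 genes named by rule. On the log2 scale the difference was positive for Nupr1 (4.84), Psph (2.90), Arhgef2 (2.66), Atf5 (2.53), Cyb5r1 (2.37), Psat1 (2.31), Clic4 (1.92) and Atf4 (1.57). It was negative for Srp54a (-4.57), Ano3 (-1.44), Dclk1 (-1.14), Zhx3 (-1.12) and Pex5l (-1.11).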

How the results depend on the processing

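Of 317 called list members and named genes, 260 kept call and direction in all C201R alternatives and 57 lost the call in at least 1. Only Cplx2, Morc2a and Sv2a also changed sign, with library totals (0.09, 0.08 and 0.06, none called). Of called genes named by rule or added after their values were seen, 130 of 141 kept their call. With library totals in place of TMM, 5657 genes were higher and 2284 lower in C201R, and 6881 higher and 2441 lower in wild type. DESeq2 gave 4002 higher and 4759 lower in C201R. The interaction calls moved most: from 16 positive and 5 negative to 1 and 0 with library totals (794 genes at an unadjusted p under 0.05 in edgeR) and 84 and 31 with DESeq2. Negative calls were 3 without the series term and 11 in series 2 alone. With a replicate block for the prefix of the mouse number, 3456 genes were higher and 2664 lower in C201R, and the interaction called 6 and 0 (1133 at an unadjusted p under 0.05). In C201R, libraries with Cre did not deviate together with libraries without Cre of the same prefix (correlations -0.21 to 0.36 over 8 pairs). Prefixes were therefore not taken as pairs. Libraries within a group were not compared in this way.

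With 1 library left out, C201R counts ranged from 3635 to 4520 higher and 3285 to 4803 lower. Positive interactions ranged from 9 (without mouse 14703-4, C201R with Cre) to 27 (without 14701-1, wild type without Cre), with 10 without 14702-3 or 14004-3 (wild type with Cre). Negative interactions ranged from 1 to 12. They were 12 without 14701-9 (wild type with Cre), 10 without 14701-1, 4 or 5 without 14003-1, 14004-5, 14004-7 or 14004-8 (C201R), and 3 or fewer without any of the 18 other libraries. The list medians of excitatory markers (0.20 with library totals), sensory markers (-1.39 with no count filter, -1.20 in series 2, -1.74 with all 24 libraries in 1 fit) and voltage-gated channels (-0.09 with RLE) changed sign. Blood markers that fell numbered 3 of 8 without the series term or with the block and 4 in series 2, and meningeal markers 4 of 8 with the block. Channels were 10 higher and 4 lower with library totals. The cause was not tested. At this depth some genes had too few counts for a test, such as Lhx3 (112 counts with Cre, 7 without); recovery by count level was not tested.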
